A study of Mus musculus with 11 samples.

Results

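The comparison is between CX3CR1+ mononuclear phagocytes of the initial segments (IS), the first stretch of the epididymis, and those of the caput and corpus (caput/corpus), the stretch that follows. It takes every library of these regions, 4 from IS and 3 from caput/corpus, 7 of the 11 libraries in the study, and leaves out the 4 from the cauda, the last stretch. All mice were 12 weeks old and carried CX3CR1 EGFP +/-, so that EGFP was made under control of the gene for the fractalkine receptor, on a single allele. No group was treated, and no mouse without the transgene was among the 7 libraries, so the genotype is shared by both sides of the comparison. EGFP+ cells were sorted in a double pass, and each library pooled the cells of 4 epididymides. The labels do not say which animals gave which library, so p-values measure the spread between these libraries, part of which may be technical.

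The epididymis is the coiled duct in which sperm leaving the testis mature, and its epithelium changes along its length in what it secretes. Mononuclear phagocytes (macrophages, dendritic cells and monocytes) lie in and under this epithelium. They take up dying cells and defective sperm and present antigen to lymphocytes, in a tissue that must tolerate sperm proteins and yet resist ascending infection. In the proximal duct many of them send slender projections between the epithelial cells toward the lumen. CX3CR1 is carried by monocytes, many tissue macrophages and some dendritic cells. The comparison asks how the RNA of these cells differs between neighbouring stretches of the duct.

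The libraries fell into the title series Maj3 (IS replicates 1 and 2, caput/corpus replicate 1) and Maj4 (IS replicates 3 and 4, caput/corpus replicates 2 and 3), and held between 17618698 and 28881452 reads on genes, with 17053 to 18837 genes detected by at least 1 read. Reads were recovered from the RPKM columns named for each sample, and each of the 7 columns is identical to a deposited count file. For IS replicate 2 and caput/corpus replicate 1 that file is listed under another sample. The file that matches the IS 2 column is listed as caput/corpus replicate 1, and the file that matches the caput/corpus 1 column is listed as cauda replicate 1. In all 10 matches between a file and a column of the series, the number in the file's title fits the number in the column's name within its title series. Principal components of log2 CPM (the usual depth-scaled read level, on the effective library size) kept the regions apart on the first axis (35.3% of the variance). IS libraries lay between -39.2 and -6.39 there, caput/corpus replicate 1, nearest to IS, at 5.6 and caput/corpus replicates 2 and 3 at 54.8 and 48.4. On the second axis (31.4%) the Maj3 libraries lay at 8.81, 34.9 and 48.6. Of Maj4, IS replicates 3 and 4 lay there at -46.1 and -45.7, and caput/corpus replicates 2 and 3 at 9.53 and -10.1.

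Transcripts of the sorted lineage were abundant on both sides. Cx3cr1 (ENSMUSG00000052336) stood at 898, 628, 832 and 837 CPM in IS replicates 1 to 4 and at 556, 333 and 384 CPM in caput/corpus replicates 1 to 3, the order used for all values per library below. The groups did not overlap, and the log2 fold change, given throughout as IS minus caput/corpus with its SE, was 0.90 ± 0.19 (adjusted p = 0.0334). That call was lost with the replicate block (adjusted p = 0.109), which pairs libraries of the same series and number, and without each of IS 1, IS 3, IS 4, caput/corpus 2 and caput/corpus 3 (adjusted p = 0.0863 to 0.12). Csf1r, the CSF1 receptor on which macrophages depend, stood at 3316 ± 292 CPM in IS (mean ± SD, n = 4) and 2253 ± 490.0 CPM in caput/corpus (n = 3) and missed the threshold (adjusted p = 0.0627). Neither Ptprc, the leukocyte antigen CD45 (log2 -0.19 ± 0.12, adjusted p = 0.4), nor the macrophage adhesion receptor Adgre1 (log2 0.10 ± 0.14, adjusted p = 0.751), passed the test. Of 18 core macrophage markers all were detected, 2 were higher in IS (Cx3cr1 and Mertk) and 0 in caput/corpus, with a median log2 fold change of 0.26 against 0.02 over all genes tested. Since these are bulk samples, fewer cells of a type and less RNA per cell cannot be told apart in any difference below.

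Between the regions, 914 of 14452 genes tested (6.32%) were called by edgeR's quasi-likelihood test at an adjusted p under 0.05. Those higher in IS, or called toward IS, numbered 361 (2.5% of the genes tested) and those called toward caput/corpus 553 (3.83%). A fold of 2 or more was reached by 207 of the former and 344 of the latter. The libraries of the regions did not overlap for 732 of the 914, against 14.6% of all genes tested (6.84% with IS above and 7.78% with caput/corpus above). Lack of overlap was also a condition for the 15 genes of smallest p named in each direction. With the replicate block 398 genes were called (2.75%), 116 toward IS and 282 toward caput/corpus, and 382 of them were among the 914. All 910 called genes that could be fitted within both title series differed in the same direction in each. The calls came from these same libraries, which favors such agreement, so it is no separate check. The number called fell to 471, 382 and 436 when IS 1, IS 3 and IS 4 were left out in turn, and to 381, 418 and 351 when caput/corpus 1, 2 and 3 were. It was 912 without IS replicate 2, and 197 of the 914 were called in all 7 of these fits. A gene is said below to have held throughout if it was called in all 7 and with the block, which was so for 66 genes toward IS and 128 toward caput/corpus. Each called gene named below of which this is not said lost its call in at least 1 of these 8 fits. With the 5 libraries for which file and column match, where caput/corpus is present in Maj4 alone, 263 genes were called, and 235 of them among the 914, all of which kept their direction. Taking instead the count files as they are listed under each sample, edgeR called 0 genes in either direction, with 647 at an unadjusted p under 0.05.

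**Figure D1:**
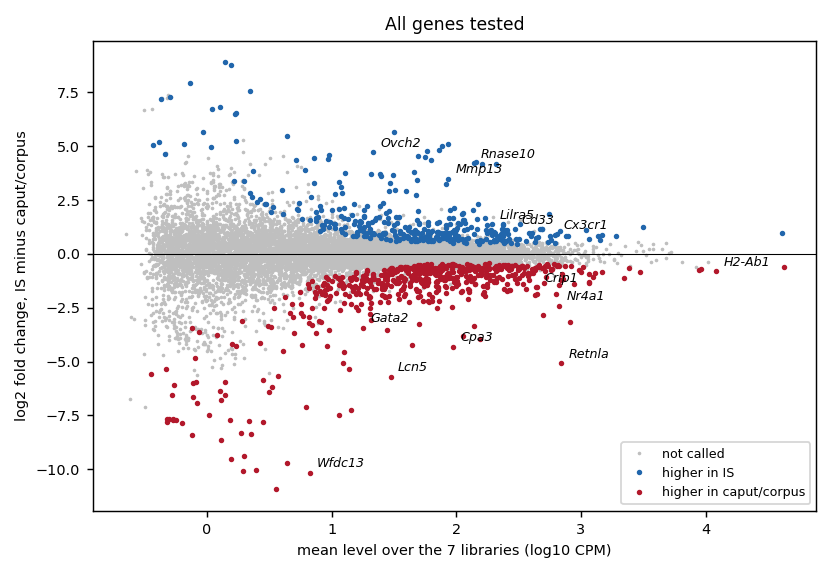
Each point is 1 of the 14452 genes tested, placed by its mean level over the 7 libraries (log10 CPM) and its fitted log2 fold change, positive where IS was higher. Blue points are the 361 genes called higher in IS, red points the 553 called higher in caput/corpus, and fitted values of genes with almost no reads in a region are far from 0 but depend on the prior count.

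Receptors of myeloid cells from the immunoglobulin-like and lectin families were called in both directions, and among those higher in IS were Lilra5, Cd33, Siglece and Clec5a. Lilra5 (ENSMUSG00000070873), a leukocyte receptor of the immunoglobulin family that signals through the Fc receptor gamma chain, stood at 315, 299.8, 232 and 223 CPM in IS and 114, 88.7 and 87.6 CPM in caput/corpus. Its lowest IS library was well above its highest caput/corpus library, with a log2 fold change of 1.39 ± 0.10 (adjusted p = 0.00135) that was 1.40 in Maj3 and 1.38 in Maj4. Cd33, a sialic-acid-binding lectin of the Siglec family, stood at 390.0, 339.7, 428 and 380.2 CPM against 205, 145 and 166 CPM (log2 1.15 ± 0.15, adjusted p = 0.00604). Its relative Siglece, which carries inhibitory motifs, stood at 303, 302, 280.4 and 277 CPM against 195, 147 and 142 CPM (log2 0.82 ± 0.11, adjusted p = 0.0064). Clec5a, an activating lectin coupled to the adaptor DAP12, stood at 132 ± 36.4 CPM in IS and 57.6 ± 25.4 CPM in caput/corpus (log2 1.10 ± 0.13, adjusted p = 0.0048). These 4 genes did not overlap between regions and held throughout. In the list of C-type lectins, to which Clec5a belongs, 2 of 25 tested genes were called toward IS and 9 toward caput/corpus (1 and 6 with the block, 2 and 2 without caput/corpus 1), with a median of -0.74. Of 26 tested members of the list of Siglec, Trem, Cd300 and Lilr receptors, 6 were called toward IS and 3 toward caput/corpus (4 and 1 with the block, 4 and 1 with the 5 libraries), and the median log2 fold change was -0.03. The counts were 3 and 2 without IS 1, 3 and 1 without caput/corpus 3, and 6 and 1 without caput/corpus 1. Also called toward IS were Siglech and, from the same receptor families, Cd300lf and Pilra (log2 0.95 and 0.60). With 1 library left out each of these last 2 was called in 2 of the 7 fits, and Pilra was lost with the block (adjusted p = 0.0587). Among the 3, Cd300lb, an activating receptor of the Cd300 family, stood at 23.3, 27.8, 20.7 and 26.4 CPM in IS and 81.1, 84.8 and 71.5 CPM in caput/corpus (log2 -1.70 ± 0.15, adjusted p = 0.00275) and held throughout. Both others, Siglecg (log2 -1.36) and Lilra6 (log2 -1.43), were lost with the block (adjusted p = 0.0639 and 0.052). Siglecg was also lost without IS 1, caput/corpus 1, caput/corpus 2 and caput/corpus 3 (adjusted p = 0.0839 to 0.172), and Lilra6 without caput/corpus 1 and caput/corpus 3 (adjusted p = 0.051 to 0.0668).

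Matrix-degrading enzymes were divided between the regions. Mmp13, a collagenase, stood at 167, 126, 115 and 158 CPM in IS and 12.4, 4.44 and 20.8 CPM in caput/corpus, a log2 fold change of 3.49 ± 0.47 (adjusted p = 0.00687). Mmp12, the macrophage elastase, stood at 132, 125, 117 and 194 CPM against 33.6, 21.5 and 43.5 CPM (log2 2.13 ± 0.28, adjusted p = 0.00639). The gelatinase Mmp9 went the opposite way, at 50.5, 40.4, 56.3 and 57.3 CPM in IS and 266, 235 and 156 CPM in caput/corpus (log2 -2.10 ± 0.21, adjusted p = 0.00358). So did the membrane-bound sheddase Adam8, at 28.0 ± 6.30 against 103 ± 12.4 CPM (log2 -1.88 ± 0.20, adjusted p = 0.00404). None of these 4 genes overlapped between the regions, and all 4 held throughout. In the list of matrix metalloproteinases and their inhibitors, 4 of 19 tested members were called toward IS and 2 toward caput/corpus (2 and 2 with the block), with a median of 0.34. The other 2 higher in IS were the gelatinase Mmp2 (log2 1.84 ± 0.39) and its membrane-bound activator Mmp14 (log2 1.16 ± 0.24). Mmp2 was lost without IS 4, caput/corpus 2 and caput/corpus 3 (adjusted p = 0.0696 to 0.145), and Mmp14 without IS 3, IS 4 and caput/corpus 3 (adjusted p = 0.0898 to 0.0976). With the block their adjusted p was 0.0535 and 0.0531.

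Among the genes with the smallest p in the direction of IS were several membrane and secreted proteins that belong to no lineage list. Epb41l3, a linker of the erythrocyte band protein family between membrane proteins and the actin skeleton, stood at 48.1, 41.1, 50.5 and 44.2 CPM in IS and 8.22, 3.80 and 6.00 CPM in caput/corpus (log2 2.92 ± 0.26, adjusted p = 0.00282). The glutamate transporter Slc1a3 stood at 15.4, 16.2, 24.9 and 28.7 CPM against 2.06, 0.986 and 1.62 CPM (log2 3.75 ± 0.37, adjusted p = 0.0036). Both genes were low in every caput/corpus library. Dnase1l3, a secreted nuclease that cuts DNA in chromatin released by dying cells, stood at 27.0, 27.1, 50.5 and 52.9 CPM in IS and 8.29, 13.02 and 19.2 CPM in caput/corpus (log2 1.69 ± 0.18, adjusted p = 0.00404). The receptor phosphatase Ptprm, which binds itself across cell contacts, had a log2 fold change of 1.77 ± 0.20 and means of 25.4 and 8.30 CPM. Emid1, an extracellular protein with an EMI domain, had a log2 fold change of 3.28 ± 0.35 (means 11.9 and 1.083 CPM), and Ly6g5c, of the Ly6 family, one of 3.43 ± 0.34 (means 79.7 and 7.41 CPM). The adjusted p of these last 3 genes was 0.00443, 0.00413 and 0.00358. All 6 genes of the paragraph held throughout.

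**Figure D2:**
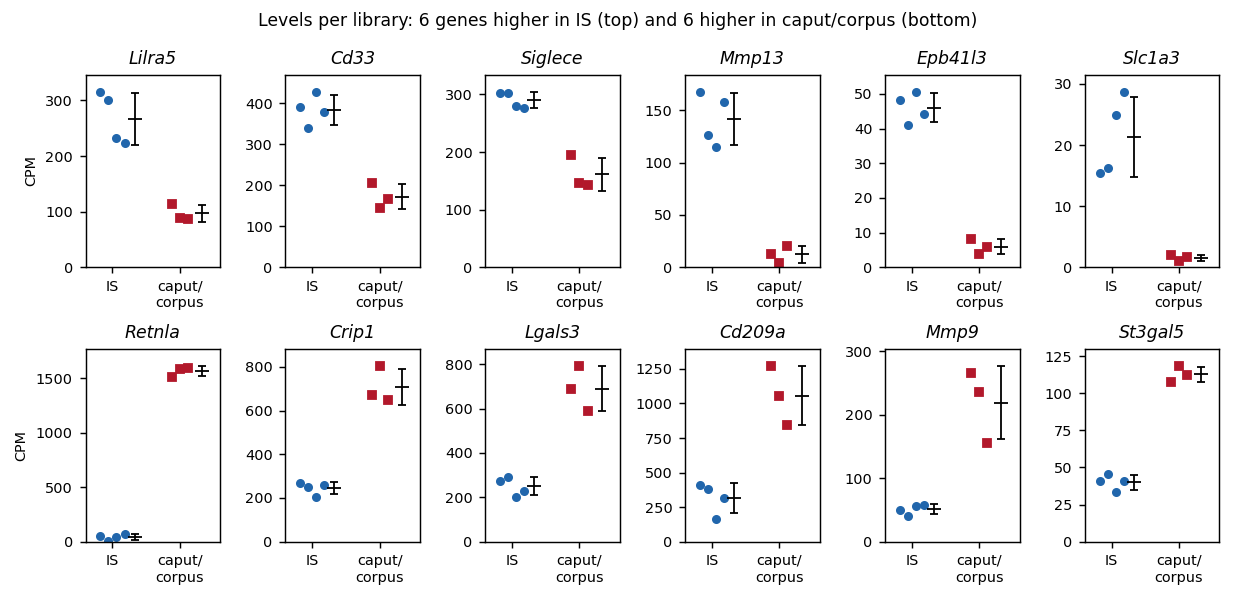
Levels in CPM in each library, with IS replicates 1 to 4 as blue circles, caput/corpus replicates 1 to 3 as red squares, and the mean ± SD of each region in black. In the top row every IS library lies above every caput/corpus library, as for Mmp13, where IS reached at least 115 CPM and caput/corpus at most 20.8 CPM, and in the bottom row the order is the opposite.

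A list of 18 genes known from microglia, the macrophages of the brain, leaned to IS. Of these, 8 were called toward IS and 0 toward caput/corpus, 17 had a positive log2 fold change, and the median was 1.16 against 0.02 over all genes tested. The purinergic receptor P2ry12, by which microglia sense nucleotides from injured cells, stood at 542, 496, 403 and 309 CPM in IS and at 331, 92.5 and 91.9 CPM in caput/corpus. Gpr84, a receptor for medium-chain fatty acids, stood at 59.5, 66.5, 63.5 and 57.0 CPM against 24.0, 2.22 and 4.08 CPM (log2 2.91 ± 0.59, adjusted p = 0.0275). In both genes caput/corpus replicate 1 was far above the remaining caput/corpus libraries, and for P2ry12 it lay inside the range of IS (log2 1.40 ± 0.26, adjusted p = 0.0217). Tmem119, a membrane protein used to mark microglia, showed the same arrangement, at 517, 510.5, 451 and 275 CPM in IS and 385, 58.3 and 77.9 CPM in caput/corpus, and was not called (log2 1.55 ± 0.41, adjusted p = 0.0673). Sall1, a transcription factor of microglia, instead differed by title series within IS, at 7.84, 7.07, 43.3 and 44.6 CPM against 6.45, 4.19 and 1.77 CPM, and was not called (adjusted p = 0.142).

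The median over the microglia-type list was 0.31 within Maj3 and 1.51 within Maj4. Without caput/corpus replicate 1, 14 of the 18 were called, without IS replicate 2 there were 9, and without IS replicates 1, 3 and 4 there were 4, 2 and 1. Without caput/corpus 2 and caput/corpus 3, the libraries in which these genes were low, 1 and 0 were called. With the replicate block 1 gene was called, P2ry13, a purinergic receptor at 354, 329, 268 and 269 CPM in IS and 214, 85.9 and 104 CPM in caput/corpus (log2 1.16 ± 0.18, adjusted p = 0.0118, 0.0434 with the block). P2ry13 lost its call without caput/corpus 3 alone (adjusted p = 0.06). Also called were Golm1, a Golgi membrane protein (log2 1.65), Gpr34, a receptor for lysophosphatidylserine (0.62), Siglech (1.11) and the TGF-beta receptor Tgfbr1 (1.16). With the block their adjusted p was 0.0738, 0.102, 0.0738 and 0.0841, and that of P2ry12 and Gpr84 0.059 and 0.0579. P2ry12 and Gpr84 lost their calls without each of IS 3, IS 4, caput/corpus 2 and caput/corpus 3 (adjusted p = 0.0525 to 0.102 and 0.0706 to 0.116). Golm1, Gpr34 and Tgfbr1 did so without each of these and IS 1 (0.0504 to 0.0888, 0.0848 to 0.115 and 0.0641 to 0.0854), and Siglech without IS 1, IS 4, caput/corpus 2 and caput/corpus 3 (0.0683 to 0.138). With the 5 libraries for which file and column match, all from Maj4 but for IS replicate 1, 11 of the 18 were called.

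**Figure D3:**
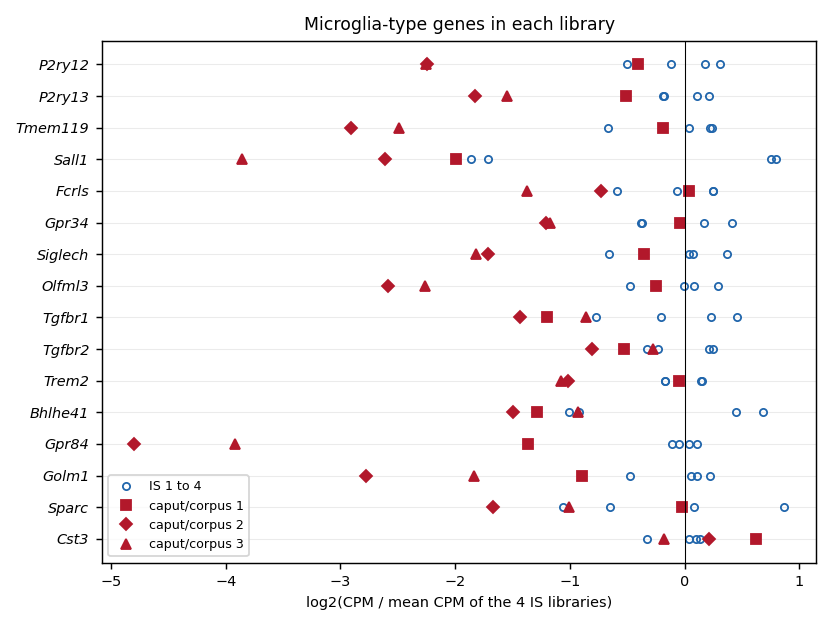
Level of 16 of the microglia-type genes in each library as log2 of its CPM over the mean CPM of the 4 IS libraries, so that the vertical line at 0 is the IS mean. Slc2a5, with 0 reads in caput/corpus replicates 2 and 3, is not drawn. For P2ry12, Tmem119, Olfml3 and Siglech the red square of caput/corpus replicate 1 lies near the open IS circles, while replicates 2 (diamonds) and 3 (triangles) lie further left.

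Genes for the uptake of dead cells and modified proteins were called more often higher in IS. Among 21 tested genes of apoptotic cell uptake, 7 were called toward IS and 2 toward caput/corpus (2 and 1 with the block), with a median of 0.30. Mfge8, a bridging protein that binds phosphatidylserine on dying cells, stood at 211, 413, 206 and 142 CPM in IS and 80.2, 64.3 and 63.3 CPM in caput/corpus (log2 1.65 ± 0.26, adjusted p = 0.0122, 0.0263 with the block). Within IS, Mfge8 ranked the libraries as did the summed genes of epididymal principal cells, treated below (3023, 4123, 2801 and 1913 CPM). The part of epithelial RNA in its level was not tested. Stab1, a phosphatidylserine and scavenger receptor, stood at 1075, 924, 2165 and 1497 CPM against 570.2, 698 and 787 CPM (log2 1.10 ± 0.17, adjusted p = 0.0113, 0.0458 with the block). Neither gene overlapped between the regions. The TAM kinases Mertk and Axl, which bind dying cells through bridging proteins, had log2 fold changes of 1.15 ± 0.22 and 0.69 ± 0.14 (adjusted p = 0.0245 and 0.0302) and were lost with the block (adjusted p = 0.0831 and 0.083). The remaining 3 higher in IS were the integrin chain Itgb5 (log2 1.15), the phosphatidylserine receptor Havcr2, known as TIM-3 (1.03), and the cholesterol exporter Abca1 (0.83), and the block gave them adjusted p = 0.0745, 0.0626 and 0.093. Cd47, the signal that restrains uptake through SIRP alpha, was higher in caput/corpus (log2 -0.70 ± 0.12, adjusted p = 0.0151, 0.0496 with the block), as was Anxa1 (log2 -1.27 ± 0.23, adjusted p = 0.0181, 0.0648 with the block).

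The counts of this uptake list moved with single libraries. With 1 library left out, 7 of its genes were called toward IS without IS replicate 2, 4 without caput/corpus replicate 1, 2 without each of the other IS libraries, and 0 when caput/corpus 2 or caput/corpus 3 was dropped. Mertk and Abca1 were called with 1 library left out only when that was IS 2 (adjusted p = 0.0602 to 0.0862 and 0.0667 to 0.153 otherwise). Axl and Itgb5 were lost without each of IS 1, IS 3, IS 4, caput/corpus 2 and caput/corpus 3 (0.0672 to 0.0959 and 0.0538 to 0.123), Havcr2 without IS 1, IS 4, caput/corpus 2 and caput/corpus 3 (0.0611 to 0.12), Cd47 without IS 3 and IS 4 (0.0614 to 0.0668) and Anxa1 without IS 3, IS 4, caput/corpus 2 and caput/corpus 3 (0.0528 to 0.0808). Mfge8 lost its call without IS 3, caput/corpus 1, caput/corpus 2 and caput/corpus 3 (adjusted p = 0.0506 to 0.082) and Stab1 without caput/corpus 2 and caput/corpus 3 (adjusted p = 0.0508 to 0.0546). Of 14 tested scavenger receptors 4 were called toward IS and 0 toward caput/corpus (3 and 0 with the block), with a median of 0.20. The count was 1 when any caput/corpus library was left out, and 2 without IS 1 or IS 3. Msr1, the class A scavenger receptor, stood at 302, 343, 179 and 240.0 CPM in IS and 157, 113 and 104 CPM in caput/corpus (log2 0.99 ± 0.14, adjusted p = 0.00715) and was lost only without caput/corpus replicate 1 (adjusted p = 0.0521). Among 16 tested cathepsins and legumain, 3 were called toward IS and 0 toward caput/corpus (2 and 0 with the block). Cathepsin F (Ctsf) held throughout, at 73.2 ± 18.2 CPM in IS and 31.1 ± 11.5 CPM in caput/corpus (log2 1.14 ± 0.15, adjusted p = 0.00666). Cathepsin D (Ctsd, log2 1.27 ± 0.27) was lost with the block (adjusted p = 0.0592) and without IS 1, IS 4, caput/corpus 2 and caput/corpus 3 (adjusted p = 0.0567 to 0.14). Legumain (Lgmn, log2 0.66 ± 0.14) kept its call with the block (adjusted p = 0.047) and lost it without IS 1, IS 3, IS 4, caput/corpus 1, caput/corpus 2 and caput/corpus 3 (adjusted p = 0.065 to 0.0996).

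Much higher in caput/corpus was Retnla (ENSMUSG00000061100), which encodes RELM alpha, a secreted protein induced by IL-4 and IL-13. It stood at 55.9, 9.00, 42.6 and 75.02 CPM in IS and at 1517, 1584 and 1599.8 CPM in caput/corpus. The 3 caput/corpus libraries lay close together, while the IS libraries differed severalfold and all stood far below them (log2 -5.08 ± 0.57, adjusted p = 0.00459). Of 20 tested genes of alternative activation and tolerance, 5 were called toward caput/corpus and 0 toward IS (3 and 0 with the block, 2 and 0 without caput/corpus 1), with a median of -0.16. The others were the chitinase-like Chil3, the retinaldehyde dehydrogenases Aldh1a2 and Aldh1a3, which make retinoic acid, and the transcription factor Nfil3 (log2 -1.87 to -3.34). Chil3 and Nfil3 were lost with the block (adjusted p = 0.0703 and 0.0666). In the list of perivascular resident macrophage genes, 6 of 16 were called toward caput/corpus and 0 toward IS (3 and 0 with the block), and the median was -1.20. Among the 6 were coagulation factor F13a1, the lectin Cd209g and ficolin A (Fcna), with log2 fold changes of -1.22 to -3.06. The chemokine Ccl24, which draws eosinophils, stood at 14.2 ± 7.83 CPM in IS and 45.3 ± 13.3 CPM in caput/corpus (log2 -2.01 ± 0.31, adjusted p = 0.0108). The lectins Cd209f and Cd209d had log2 fold changes of -3.24 ± 0.44 and -1.96 ± 0.26 (adjusted p = 0.00687 and 0.00669) and were lost only without caput/corpus replicate 1 (adjusted p = 0.0672 and 0.0649). Without that library 1 of the 16 perivascular genes was called, and without IS 1, IS 3 and caput/corpus 2 there were 4, 3 and 3. Retnla and Ccl24 held throughout.

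Among genes for small calcium-binding proteins and galectins most were called toward caput/corpus, and of those for actin-binding proteins a minority. Of 12 tested S100 proteins and galectins 7 were called toward caput/corpus and 0 toward IS (5 and 0 with the block, 5 and 0 with the 5 libraries), with a median of -0.94. Besides the 5 named next, S100a11 and S100a13 were called (log2 -1.18 and -0.84). Galectin-3 (Lgals3), a secreted sugar-binding protein, stood at 275, 293, 203 and 229 CPM in IS and 689.9, 791 and 590.1 CPM in caput/corpus (log2 -1.52 ± 0.15, adjusted p = 0.00358). S100a4 stood at 32.4, 25.5, 34.2 and 57.4 CPM against 96.8, 186 and 149.7 CPM (log2 -1.82 ± 0.20, adjusted p = 0.0043). Both were higher in every caput/corpus library than in any IS library. The calcium-binding S100a6 (log2 -1.78 ± 0.21) and S100a10 (-1.58 ± 0.23) and galectin-1 (Lgals1, -1.04 ± 0.11) differed in the same direction, with adjusted p = 0.00494, 0.00924 and 0.00393. Among 33 actin-binding and related cytoskeletal genes 7 were called toward caput/corpus and 0 toward IS (6 and 0 with the block), and the median was -0.31. Crip1, a small LIM-domain protein, stood at 267, 252, 203 and 258 CPM in IS and 673, 802 and 650.3 CPM in caput/corpus (log2 -1.54 ± 0.14, adjusted p = 0.00282). The intermediate filament vimentin (Vim) and the leukocyte F-actin binder Lsp1 had log2 fold changes of -1.41 ± 0.19 and -1.42 ± 0.18 (adjusted p = 0.00666 and 0.00604). The actin monomer binder Tmsb10 did too (-1.48 ± 0.16, adjusted p = 0.0043), though reads shared with its processed copies are left out of such counts, so its level is uncertain. The actin-capping Capg, the giant scaffold Ahnak and annexin A2 (Anxa2) completed the 7 (log2 -1.07 to -1.40). All genes of the paragraph held throughout except S100a11, S100a13, Capg, Ahnak and Anxa2. When caput/corpus 2 or caput/corpus 3 was dropped, 4 actin-binding genes were called.

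Most monocyte genes were called toward caput/corpus, and none toward IS. In the list of classical and non-classical monocytes, 11 of 18 were called higher there (7 with the block), all 18 had a negative log2 fold change, and the median was -1.21. Besides those described next and Nr4a1, the called members included the chitinase-like Chil3, fibronectin (Fn1), haptoglobin (Hp), the sialophorin Spn and the receptor Gpr141 (log2 -0.91 to -1.97). Ear2, an eosinophil-associated ribonuclease of non-classical monocytes, stood at 20.4, 12.99, 17.2 and 36.5 CPM in IS and 68.6, 144 and 118 CPM in caput/corpus (log2 -2.18 ± 0.27, adjusted p = 0.00581), and reads it shares with near-identical paralogs are not counted. Plac8, a small protein high in classical monocytes, stood at 39.0, 49.4, 35.8 and 50.4 CPM against 83.2, 165 and 154 CPM (log2 -1.51 ± 0.23, adjusted p = 0.0109). For both genes the regions did not overlap, and both calls held throughout. Ccr2, the receptor that brings monocytes out of the marrow, stood at 699.6 ± 296 CPM in IS and 1790.5 ± 343 CPM in caput/corpus (log2 -1.29 ± 0.30, adjusted p = 0.0445, 0.0398 with the block), and Ly6c2, the antigen of classical monocytes, at 12.5 ± 3.45 and 42.8 ± 18.1 CPM (log2 -1.59 ± 0.32, adjusted p = 0.027, 0.084 with the block). Ccr2 was lost without IS 1, IS 2, caput/corpus 1, caput/corpus 2 and caput/corpus 3 (adjusted p = 0.0642 to 0.145), and Ly6c2 without IS 1, IS 3, IS 4, caput/corpus 2 and caput/corpus 3 (adjusted p = 0.0596 to 0.11). The summed level of the monocyte list ran from 937 to 2009 CPM in IS and from 3121 to 4568 CPM in caput/corpus. In every library its largest members were Ccr2 and Nr4a1, the latter at 118 to 414 CPM in IS and 1086 to 1323 CPM in caput/corpus. Nr4a1 is also in the list of immediate early genes below, so the sums of these lists are not independent. Leaving out single libraries, 6 of the list were called without IS 1, 7 without IS 3 or IS 4, 4 when caput/corpus 1 or caput/corpus 2 was dropped, and 6 when caput/corpus 3 was.

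Genes of type 2 conventional dendritic cells, which present antigen to helper T cells, were for the most part called toward caput/corpus as well. Of 10 such genes 7 were called in that direction and 0 toward IS (5 and 0 with the block, 2 and 0 with the 5 libraries), with a median of -1.53. Without caput/corpus 1 there were 4. The lectin Cd209a stood at 407, 380.3, 162 and 315 CPM in IS and 1268, 1058 and 845 CPM in caput/corpus (log2 -1.87 ± 0.22, adjusted p = 0.00493). Clec10a, a galactose-binding lectin, stood at 155, 125, 83.5 and 159.6 CPM against 449.8, 431 and 385 CPM, and the transcription factor Irf4 at 17.6, 20.7, 33.1 and 46.0 CPM against 46.7, 97.4 and 111 CPM (adjusted p = 0.0055 and 0.00463). Of Irf4, the highest IS library and the lowest caput/corpus library differed by less than 1 CPM. Tnip3, a brake on NF-kB signalling, had means of 22.4 and 85.5 CPM (log2 -1.98 ± 0.25, adjusted p = 0.00597). The lectin Mgl2, the zinc finger factor Klf4 and the TNF family ligand Tnfsf9 were called too (log2 -0.89 to -2.48), in 3, 6 and 1 of the 7 fits with 1 library left out. Cd209a, Clec10a, Irf4 and Tnip3 held throughout. Of 8 genes shared by conventional dendritic cells, 7 were called toward caput/corpus and 0 toward IS (5 and 0 with the block), among them the cytokine receptor Flt3 (log2 -1.41 ± 0.24) and the transcription factor Zbtb46 (-0.91 ± 0.19), with adjusted p = 0.0327 and 0.0284 with the block. Flt3 was lost without each of caput/corpus 1, caput/corpus 2 and caput/corpus 3 (adjusted p = 0.0527 to 0.113) and Zbtb46 without each of IS 1, IS 3, caput/corpus 1 and caput/corpus 3 (adjusted p = 0.0695 to 0.151). The others were Dpp4, Batf3, Bcl11a, Kmo and Btla (log2 -0.79 to -1.48). None of the 8 was called without caput/corpus 1, 3 were without caput/corpus 2, 2 without caput/corpus 3 and 4 when IS 1 or IS 3 was dropped. Of 10 genes of type 1 conventional dendritic cells, 1 was called in each direction, and the one higher in IS, the adhesion molecule Cadm1, which macrophages also carry, had a log2 fold change of 1.10 ± 0.16 (adjusted p = 0.00918) and held throughout. The other, the lysosomal amidase Naaa, had a log2 fold change of -1.20 and lost its call without caput/corpus 1 (adjusted p = 0.0529).

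A minority of the MHC class II genes, which load and display peptides to helper T cells, were called. Of 20 genes of class II presentation 7 were called toward caput/corpus and 1, Lgmn, toward IS (5 and 1 with the block, 0 and 0 with the 5 libraries), with a median of -0.52, and 12 did not pass the test. H2-Ab1, a class II beta chain, stood at 11452, 11384, 7215 and 8300.0 CPM in IS and 19155, 15171 and 12224 CPM in caput/corpus (log2 -0.79 ± 0.11, adjusted p = 0.00715). Its partner chain H2-Aa had a log2 fold change of -0.69 ± 0.11 (adjusted p = 0.013) and was lost only without IS replicate 4 (adjusted p = 0.0619). H2-Eb1, H2-DMa and H2-Oa were also called toward caput/corpus (log2 -0.55 to -1.47). The peptide-loading chain H2-DMb2 differed more, at 103, 110.0, 54.8 and 85.4 CPM against 244, 219.5 and 175 CPM (log2 -1.38 ± 0.18, adjusted p = 0.00604). H2-Ab1 and H2-DMb2 held throughout, and neither overlapped between the regions. Cd74, the invariant chain, overlapped between regions and was lost with the block (log2 -0.62 ± 0.12, adjusted p = 0.0258, 0.0596 with the block) and without IS 1, IS 3, IS 4 and caput/corpus 3 (adjusted p = 0.0544 to 0.101). Without IS replicate 4 the list had 4 calls toward caput/corpus.

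**Figure D4:**
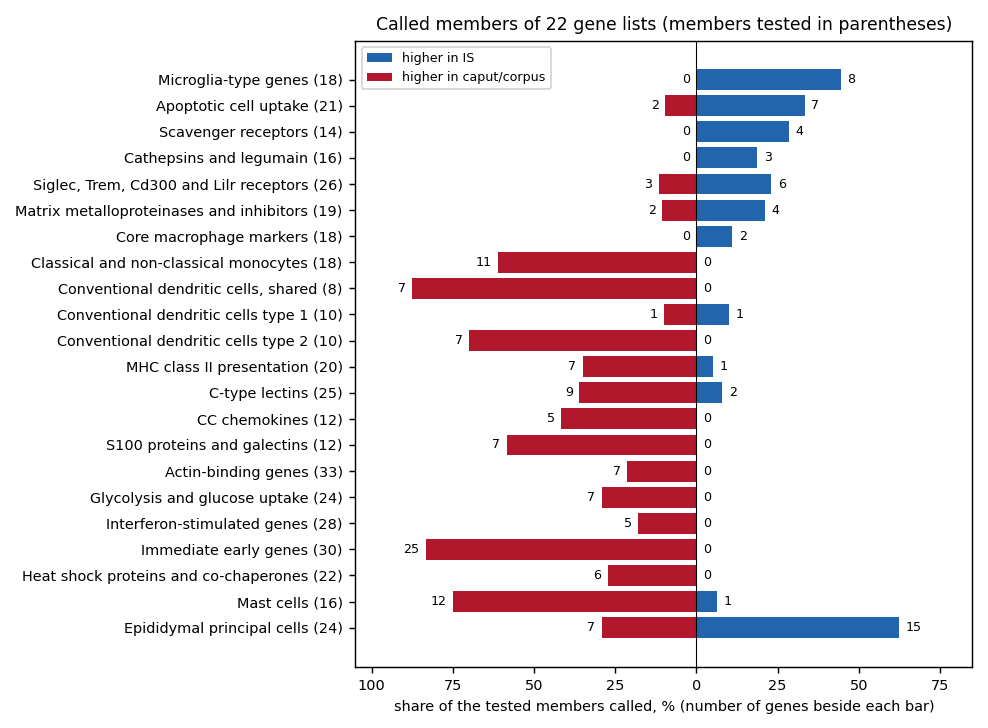
Share of the tested members of 22 gene lists called higher in IS (blue, to the right) or in caput/corpus (red, to the left), in percent, with the number of genes beside each bar and the members tested in parentheses. Over all genes tested the shares were 2.5% and 3.83%, against 8 of 18 microglia-type genes to the right and 25 of 30 immediate early genes to the left.

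Of the soluble signals, some CC chemokines and receptors for lipid mediators were called. Among 12 tested CC chemokines 5 were called toward caput/corpus and 0 toward IS (3 and 0 with the block), with a median of -1.06. Ccl9, a chemokine of myeloid cells that attracts dendritic cells, stood at 182, 157, 173 and 278 CPM in IS and 545, 1003 and 759 CPM in caput/corpus (log2 -1.86 ± 0.19, adjusted p = 0.0039). Its neighbour in the family Ccl6 stood at 464, 371, 300.5 and 431 CPM against 989, 1256 and 863 CPM (log2 -1.42 ± 0.19, adjusted p = 0.0064). Ccl24 and the monocyte attractants Ccl2 and Ccl7 (log2 -0.92 and -1.31) were the other members called. When caput/corpus 2 or caput/corpus 3 was dropped, 3 chemokines were called. In the prostaglandin and leukotriene list, 5 of 23 tested genes were called toward caput/corpus and 2 toward IS (5 and 1 with the block). Ltb4r1, the high-affinity receptor for leukotriene B4, stood at 21.8, 20.2, 21.5 and 27.4 CPM in IS and 88.1, 100.1 and 79.2 CPM in caput/corpus (log2 -1.95 ± 0.15, adjusted p = 0.00164). The prostacyclin receptor Ptgir stood at 6.37, 7.07, 8.76 and 12.8 CPM against 34.2, 36.7 and 34.2 CPM (log2 -1.97 ± 0.21, adjusted p = 0.0043), and Alox5ap, which hands arachidonic acid to 5-lipoxygenase, had means of 196 and 396 CPM (adjusted p = 0.0109). The regions did not overlap for Ccl9, Ccl6, Ltb4r1, Ptgir and Alox5ap, which held throughout. The prostaglandin E2 receptor Ptger2 was called as well (log2 -2.33 ± 0.34), though not without caput/corpus 1 (adjusted p = 0.0686). The cyclooxygenases went opposite ways: the constitutive Ptgs1 was higher in IS (713, 635, 633 and 560.3 CPM against 426, 210.0 and 221 CPM, log2 1.14 ± 0.18) and the inducible Ptgs2 in caput/corpus (17.2, 30.8, 7.88 and 16.2 CPM against 66.7, 58.6 and 97.1 CPM, log2 -2.22 ± 0.39). With the block their adjusted p was 0.0449 and 0.0376. Ptgs1 was lost without caput/corpus 2 and caput/corpus 3 (adjusted p = 0.0523 to 0.0579), and Ptgs2 without IS replicate 4 (adjusted p = 0.0642). Of 17 tested inflammatory cytokines edgeR called 0 in either direction (3 and 5 toward IS and caput/corpus at an unadjusted p under 0.05), DESeq2 2 and 3 and limma voom 0.

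Other genes called toward caput/corpus came from several lists, most of whose members were not called. St3gal5, a sialyltransferase of ganglioside synthesis, stood at 40.7, 45.6, 33.2 and 40.8 CPM in IS and 108, 118 and 112 CPM in caput/corpus (log2 -1.51 ± 0.13, adjusted p = 0.00282). Gm2a, the lysosomal ganglioside activator protein, had a log2 fold change of -0.88 ± 0.12, and Pltp, the phospholipid transfer protein, one of -1.36 ± 0.16. Smpdl3a, a secreted relative of acid sphingomyelinase, stood at 70.7, 83.7, 84.6 and 85.3 CPM against 189.7, 272 and 206 CPM (log2 -1.41 ± 0.14, adjusted p = 0.00358). The growth factor receptor Fgfr1 stood at 19.3, 19.4, 24.1 and 39.7 CPM in IS and 67.4, 145 and 133 CPM in caput/corpus, and the secreted ligand Wnt11 at 8.77, 9.19, 3.12 and 5.04 CPM against 42.2, 39.0 and 33.7 CPM (adjusted p = 0.00348 and 0.00358). In the list of ganglioside synthesis 4 of 14 tested genes were called toward caput/corpus and 1 toward IS (3 and 0 with the block), in that of lipid and cholesterol handling 1 and 2 of 24 (1 and 1 with the block, median 0.15), and in that of growth factors and their receptors 2 and 1 of 22 (2 and 0 with the block, median -0.05). None of the 6 genes from St3gal5 to Wnt11 overlapped between the regions, which for St3gal5, Smpdl3a, Fgfr1 and Wnt11 was a condition of being named. Ifitm6, of the interferon-induced membrane proteins that restrict viral entry, stood at 26.6, 19.1, 23.8 and 40.1 CPM against 103, 161 and 134 CPM (log2 -2.20 ± 0.21, adjusted p = 0.00358), and its relative Ifitm3 and the interferon-inducible Ifi27l2a had log2 fold changes of -1.20 ± 0.17 and -1.19 ± 0.17. The interferon-stimulated list had 5 of 28 genes called toward caput/corpus and 0 toward IS (3 and 0 with the block), with a median of -0.39. Of 24 genes of glycolysis and glucose uptake, 7 were called toward caput/corpus and 0 toward IS, led by the phosphofructokinase Pfkp (log2 -1.12 ± 0.16, adjusted p = 0.00787), but with the block 2 were called, Pfkp and the enolase Eno1. The rest were Pfkl, Tpi1, Pkm, Ldha and the lactate transporter Slc16a3 (log2 -0.62 to -0.92 with Eno1). The glycolysis count was 4 when IS 3 or IS 4 was dropped and 2 without caput/corpus 1. Lysozyme 1 (Lyz1) stood at 58.2, 51.9, 13.8 and 20.6 CPM in IS and 343, 283 and 201 CPM in caput/corpus (log2 -3.35 ± 0.28, adjusted p = 0.00275). It is near-identical to Lyz2, so reads that fit both are not counted and its level is uncertain. The transcription factor Bhlhe40 had a log2 fold change of -1.78 ± 0.19 (adjusted p = 0.0043). Held throughout were St3gal5, Gm2a, Pltp, Smpdl3a, Fgfr1, Wnt11, Ifitm6, Ifitm3, Ifi27l2a, Pfkp, Lyz1 and Bhlhe40.

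Immediate early genes, which are transcribed within minutes of a stimulus, tissue dissociation and cell sorting among them, were called toward caput/corpus in most cases. Of 30 in the list 25 were called higher there and 0 in IS (15 and 0 with the block, 9 and 0 with the 5 libraries), and the median was -1.09, being -1.0 within Maj3 and -1.23 within Maj4. The orphan nuclear receptor Nr4a1 stood at 215, 414, 118 and 259 CPM in IS and 1086, 1259.8 and 1323 CPM in caput/corpus (log2 -2.40 ± 0.36, adjusted p = 0.00964). Fosb, a subunit of the AP-1 transcription factor, stood at 23.8, 20.1, 14.7 and 35.8 CPM against 70.5, 147 and 135 CPM (log2 -2.17 ± 0.31, adjusted p = 0.00808). The zinc finger factor Egr3 had means of 1.18 and 13.7 CPM (log2 -3.21 ± 0.37, adjusted p = 0.0048). For these 3 genes no IS library reached the lowest caput/corpus library. Jun, Ier2, Klf2, Btg2 and Dusp1, which are an AP-1 subunit, an early response protein, a zinc finger factor, an anti-proliferative protein and a phosphatase of MAP kinases, had log2 fold changes of -0.84, -0.95, -1.09, -0.73 and -1.33, and all 8 genes held throughout. The other called members were Fosl2, Junb, Jund, Egr1, Egr2, Ier5, Atf3, Nr4a2, Nr4a3, Klf4, Klf6, Btg1, Dusp2, Dusp5, Zfp36 and Gadd45b (log2 -0.58 to -2.62). Fos, with a log2 fold change of -1.11 ± 0.22, was lost with the block (adjusted p = 0.081) and without IS 1, IS 3, IS 4, caput/corpus 2 and caput/corpus 3 (adjusted p = 0.0611 to 0.0749). Called members numbered 13 when any of IS 3, IS 4, caput/corpus 1 and caput/corpus 2 was dropped, and 12 without caput/corpus 3. Summed over the list the level ran from 9431 to 18039 CPM in IS and from 20418 to 27464 CPM in caput/corpus. These genes moved with the region alongside the monocyte and dendritic cell genes above, and their part in those results was not tested.

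Some heat shock and NF-kB feedback genes were called in the same direction. Of 22 heat shock proteins and co-chaperones 6 were called toward caput/corpus and 0 toward IS (3 and 0 with the block), with a median of -0.43 (-0.17 within Maj3 and -0.60 within Maj4). Dnajb1, a co-chaperone of HSP70, stood at 102, 129, 62.2 and 48.6 CPM in IS and 297, 277 and 276 CPM in caput/corpus (log2 -1.95 ± 0.22, adjusted p = 0.00459). The inducible HSP70 gene Hspa1a stood at 205, 433, 67.0 and 78.1 CPM against 1073, 809.5 and 774 CPM (log2 -2.82 ± 0.40, adjusted p = 0.00808). Its near-identical copy Hspa1b had a log2 fold change of -3.14 ± 0.51, and how reads were divided between the copies is uncertain. Hspa8, Hsp90aa1 and Hspe1 were called as well (log2 -0.59 to -1.68). Within IS both copies were higher in replicates 1 and 2, of Maj3, than in replicates 3 and 4, and every IS library was below every caput/corpus library. Hspa1b was lost with the block (adjusted p = 0.0515) and when IS 3 or IS 4 was dropped (adjusted p = 0.0688 and 0.0673), while Dnajb1 and Hspa1a held throughout. Called heat shock genes numbered 2 without IS 3, 3 without IS 4, and 4 when any of IS 1, caput/corpus 2 and caput/corpus 3 was dropped. Of 19 NF-kB feedback genes 6 were called toward caput/corpus and 0 toward IS (3 and 0 with the block). The nuclear protein Csrnp1 stood at 18.1, 33.2, 20.5 and 20.3 CPM against 83.5, 116 and 129 CPM (log2 -2.24 ± 0.26) and held throughout. Nfkbia, Nfkbid, Tnfaip3 and Cd83, most of them inhibitors induced by NF-kB itself, were called too (log2 -0.74 to -1.50). Traf1, an adaptor of TNF receptors, had a log2 fold change of -1.25 ± 0.17 and was lost without caput/corpus replicate 1 alone (adjusted p = 0.0522). Of this list 4 were called without IS 3, and 3 without IS 4 or any of the caput/corpus libraries.

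Because most immediate early genes were called in the same direction, the 250 bases before their annotated starts were searched for the cAMP response element TGACGTCA, which reads the same on both strands, in the RefSeq promoters of build GRCm38.p6, a gene being counted if any of its annotated starts held it. Of 25 list members with a promoter in that table, 3 held it (12%), against 316 of 10703 genes tested that have one (2.95%). It was found in 11 of 409 genes called higher in caput/corpus (2.69%) and in 2 of 274 called higher in IS (0.73%). A single form of the serum response element, searched on both strands, was in 0 of the 25 and in 3 of the 10703 (0.028%). A heat shock element, searched likewise, was in 0 of the 25, in 2 of 18 heat shock and co-chaperone genes (11.1%) and in 49 of the 10703 (0.458%). The 3 were Btg2, Dusp1 and Maff, and their sequences up to the base before the start are shown, 5′ to 3′ on the strand of the gene, with the element in capitals. The Btg2 stretch lies at chr1:134079156-134079335, that of Dusp1 at chr17:26508473-26508632, both on the minus strand, and that of Maff, before one of several annotated starts, at chr15:79347460-79347519 on the plus strand.
Btg2: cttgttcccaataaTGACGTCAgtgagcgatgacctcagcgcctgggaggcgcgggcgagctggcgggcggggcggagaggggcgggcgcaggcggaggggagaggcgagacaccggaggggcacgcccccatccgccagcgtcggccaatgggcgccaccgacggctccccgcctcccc
Dusp1: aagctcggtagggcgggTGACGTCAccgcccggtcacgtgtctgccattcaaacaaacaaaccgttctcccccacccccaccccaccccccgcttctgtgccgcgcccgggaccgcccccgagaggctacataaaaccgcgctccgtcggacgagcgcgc
Maff: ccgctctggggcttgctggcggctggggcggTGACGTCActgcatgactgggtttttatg

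Beside these sequences stand unequal values. Btg2 stood at 826, 877, 645 and 718 CPM in IS and 1349, 1158 and 1171 CPM in caput/corpus (log2 -0.73 ± 0.10, adjusted p = 0.0064). Dusp1 stood at 1072, 1285, 403 and 467 CPM against 2270.2, 1487 and 1106 CPM, with an overlap between the regions that follows the title series (log2 -0.97 within Maj3 and -1.56 within Maj4, adjusted p = 0.00645). Maff, a small Maf transcription factor, stood at 1.83, 2.697, 1.81 and 4.08 CPM against 2.84, 6.21 and 6.84 CPM and was not called (log2 -0.83 ± 0.46, adjusted p = 0.356). A match describes the letters in this window and does not show that a factor binds there.

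Transcripts of mast cells, granular cells that are not mononuclear phagocytes, were higher in caput/corpus. Of 16 mast cell markers all were tested, 12 were called toward caput/corpus and 1 toward IS (12 and 0 with the block, where Il1rl1 was gained and Mrgprb2 lost, 9 and 0 with the 5 libraries), and the median log2 fold change was -3.63. The chymase Cma1 stood at 30.7, 8.51, 14.8 and 16.2 CPM in IS and 261, 261 and 203 CPM in caput/corpus (log2 -3.83 ± 0.38, adjusted p = 0.00358). The granule carboxypeptidase Cpa3 stood at 22.5, 4.86, 10.2 and 7.10 CPM against 225, 224 and 168 CPM (log2 -4.31 ± 0.47, adjusted p = 0.0043). Gata2, a transcription factor of the mast cell lineage, stood at 2.15, 3.68, 2.63 and 4.69 CPM against 30.5, 40.3 and 40.9 CPM (log2 -3.43 ± 0.27, adjusted p = 0.00182). In all 3 the regions were far apart, and all 3 held throughout. The tryptase Tpsb2, near-identical to Tpsab1 and hence uncertain in level, had a log2 fold change of -3.93 ± 0.46, the protease Mcpt4 one of -4.23 ± 0.54, and Mrgprb1, of a receptor family of mast cells, one of -5.09 ± 0.59, and these 3 held throughout too. The histidine decarboxylase Hdc, the monoamine transporter Slc18a2 and Mrgprb2 were called in the same direction (log2 -2.09 to -5.33). Mrgprb2 was lost with the block (adjusted p = 0.0658) and without IS 3, caput/corpus 1, caput/corpus 2 and caput/corpus 3 (adjusted p = 0.0526 to 0.122), Slc18a2 without IS 3, IS 4 and caput/corpus 1 (adjusted p = 0.0503 to 0.0644) and Hdc without IS 4 (adjusted p = 0.0711). The stem cell factor receptor Kit (log2 -2.24 ± 0.39, adjusted p = 0.0166, 0.0423 with the block) was lost without caput/corpus 1, caput/corpus 2 and caput/corpus 3 (adjusted p = 0.0539 to 0.108), and the IgE receptor chain Fcer1a (log2 -4.57 ± 0.59) without caput/corpus replicate 1 (adjusted p = 0.0503). Hpgds, a prostaglandin D2 synthase that macrophages also carry, was the member higher in IS, at 242 ± 41.4 CPM against 128 ± 29.2 CPM (log2 0.89 ± 0.18, adjusted p = 0.0259). It was lost with the block (adjusted p = 0.0718) and without IS 1, IS 3, IS 4, caput/corpus 1, caput/corpus 2 and caput/corpus 3 (adjusted p = 0.0643 to 0.0889).

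The summed level of the mast cell list, Hpgds included, ran from 267 to 450.3 CPM in IS and from 1120.5 to 1453 CPM in caput/corpus, and no member was at 0 in all 7 libraries. Without caput/corpus replicate 1, 7 mast cell genes were called toward caput/corpus. Of 5 tested basophil markers 3 were called toward caput/corpus and 0 toward IS (2 and 0 with the block, 1 and 0 without caput/corpus 1). One of them, the integrin chain Itga2b (log2 -3.42), which megakaryocytes also carry, was lost with the block (adjusted p = 0.0601) and with any 1 of the 7 libraries left out (adjusted p = 0.0527 to 0.139). The protease Mcpt8, which marks basophils, had 2 reads in IS and 338 in caput/corpus, a ratio of 237.9 for caput/corpus over IS with an exact 95% interval of 65.3 to 1972 that covers counting error only. Its adjusted p was 0.00604, and 0.0517 without caput/corpus replicate 1. Prss34, another basophil protease, had means of 0.248 and 7.36 CPM (adjusted p = 0.0133) and held throughout. The part of mast cell and basophil RNA in the other differences between the regions was not tested.

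Transcripts of the epididymal epithelium, whose principal cells secrete region by region, were present in all 7 libraries and set the regions apart in both directions. Of 24 tested principal cell genes 15 were called toward IS and 7 toward caput/corpus (14 and 7 with the block, 10 and 6 with the 5 libraries), with a median of 1.77. Ovch2, a secreted protein with ovochymase-type protease domains, stood at 42.0, 51.1, 31.1 and 23.4 CPM in IS and 1.73, 1.23 and 0.836 CPM in caput/corpus (log2 4.72 ± 0.24, adjusted p = 0.000536). Rnase10, of the RNase A family, stood at 270.0, 325, 199 and 138 CPM against 17.8, 6.41 and 10.2 CPM (log2 4.23 ± 0.23, adjusted p = 0.000536). No other genes had a smaller p. The secreted glutathione peroxidase Gpx5, which guards sperm from peroxides, stood at 885, 1159, 726 and 453 CPM against 329, 146 and 152 CPM (log2 1.84 ± 0.20). The lipocalins Lcn8 and Lcn10, carriers of small hydrophobic molecules, had log2 fold changes of 4.17 ± 0.66 and 3.29 ± 0.28, the cystatin Cst8 one of 4.52 ± 0.58 and the beta-defensin Defb48 one of 4.77 ± 0.60. Teddm2 and Teddm1a, membrane proteins of the epididymis, had log2 fold changes of 5.12 ± 0.51 and 3.82 ± 0.39, and the colipase-like Clpsl2 one of 2.23 ± 0.25. Every IS library lay above every caput/corpus library for each of these 10 genes, and all held throughout. For Ovch2, Rnase10, Gpx5, Lcn10, Teddm2, Teddm1a and Clpsl2 the lack of overlap was a condition of being named.

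Toward caput/corpus the lipocalin Lcn5 stood at 1.75, 1.79, 0.876 and 0.92 CPM in IS and 52.8, 103 and 47.3 CPM in caput/corpus (log2 -5.71 ± 0.41, adjusted p = 0.00135). The Kazal-type protease inhibitor Spink8 stood at 5.62, 8.81, 5.25 and 2.72 CPM against 70.0, 55.5 and 45.7 CPM (log2 -3.51 ± 0.27, adjusted p = 0.00182), and its relative Spink11 at 0.322, 0.038, 0 and 0.394 CPM against 25.4, 50.4 and 23.2 CPM. Another pair of inhibitors were close to absent from IS. Wfdc13, a whey-acidic-protein-type inhibitor, had 1 read in IS and 1096 in caput/corpus, a ratio of 1543 (exact 95% interval 276 to 60990). The serpin Serpina1f had 1 read against 739, a ratio of 1040.2 (186 to 41142). The intervals cover counting error only, since reads carry no molecular identifiers. Of 24 tested beta-defensins 5 were called toward IS and 8 toward caput/corpus (5 and 4 with the block, 4 and 0 without caput/corpus 1, 3 and 0 with the 5 libraries), and of 23 tested epididymal protease inhibitors 3 and 6 (3 and 4 with the block). Lcn5, Spink8, Spink11, Wfdc13 and Serpina1f held throughout. Summed over the principal cell list the level ran from 1913 to 4123 CPM in IS and from 664 to 996 CPM in caput/corpus, and no member was at 0 in all 7 libraries. The part of epithelial RNA in the differences of phagocyte genes was not tested.

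**Figure D5:**
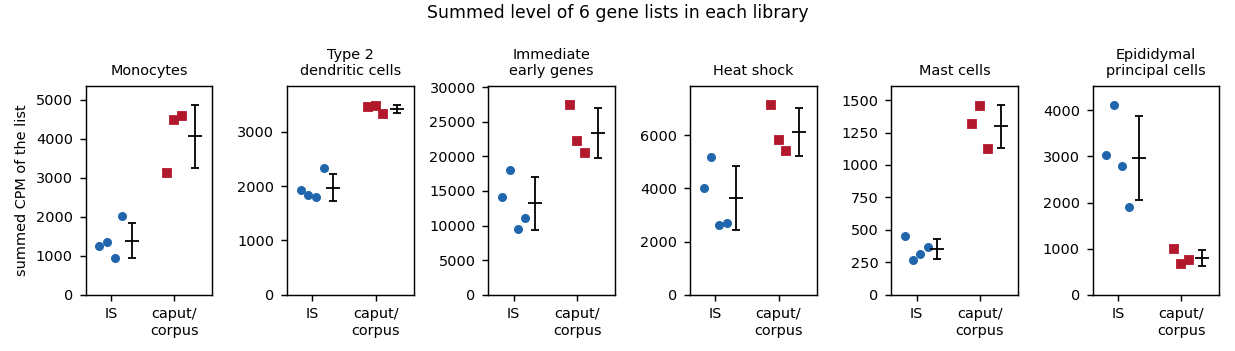
Summed CPM of 6 gene lists in each library, with IS as blue circles, caput/corpus as red squares and the mean ± SD of each region in black. Nr4a1 is counted in both the monocyte and the immediate early sum, and with Ccr2 it is the largest part of the former. The mast cell sum was at most 450.3 CPM in IS and at least 1120.5 CPM in caput/corpus, and the sum over principal cell genes was at least 1913 CPM in IS and at most 996 CPM in caput/corpus.

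Several further lists had members called. Of 17 solute carriers of macrophages 4 were called toward IS and 1 toward caput/corpus, with a median of 0.54, and beside Slc1a3 the former were Slc7a8, Slc15a3 and Slc9a9 (log2 0.60 to 1.08). With the block 1 of these was called, Slc1a3, as when IS 3, IS 4 or caput/corpus 3 was left out. Of 11 tested CXC chemokines 3 were called toward IS and 0 toward caput/corpus (1 and 0 with the block), namely the neutrophil attractant Cxcl2, Cxcl14 and the scavenger-like Cxcl16 (log2 0.65 to 1.59). None of the CXC chemokines was called toward IS without IS 3, caput/corpus 1 or caput/corpus 3. Of 18 tested tetraspanins 3 were called toward IS (Cd9, Cd81 and Tspan7) and 2 toward caput/corpus (Tspan17 and Tspan32), with 2 and 1 called with the block and 0 and 1 without caput/corpus 3. Tspan32 (log2 -1.15) held throughout. Of 21 tested genes for iron and heme 2 were called toward IS and 1 toward caput/corpus. The iron exporter Slc40a1 (log2 1.57) and ceruloplasmin (Cp, 0.81) were those called toward IS, also with the block, and 0 were without caput/corpus 3. The apolipoprotein Apoe, which carries cholesterol out of macrophages, was called toward IS (log2 0.99, adjusted p = 0.0469 with the block) and was lost without IS 1, IS 3, IS 4, caput/corpus 2 and caput/corpus 3 (adjusted p = 0.0716 to 0.134). The integrin chain Itgb7 (log2 -1.61), the glutathione peroxidase Gpx1 (-0.93) and the inflammasome protein Mefv (-1.87) were called toward caput/corpus and held throughout.

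Markers of other tissues were called in few cases. Among 7 tested smooth muscle genes 1 was higher in IS, the smooth muscle gamma-actin Actg2, at 129, 163, 118 and 84.7 CPM against 6.30, 1.63 and 4.53 CPM (log2 4.82 ± 0.35, adjusted p = 0.00135), and it held throughout. The summed smooth muscle list ran from 119 to 237 CPM in IS and from 23.03 to 37.8 CPM in caput/corpus. Without Actg2 the sum was 29.3, 74.6, 52.6 and 33.9 CPM in IS and 28.8, 21.4 and 33.2 CPM in caput/corpus, and the regions overlapped. For T cells (12 tested), B cells (3), endothelium (5) and eosinophils (2), edgeR, DESeq2 and limma voom called 0 genes in either direction, and 0 had an unadjusted p under 0.05. Of 8 natural killer cell genes edgeR called 0, though 1 and 3 toward IS and caput/corpus had an unadjusted p under 0.05, DESeq2 called 1 and 1, limma voom 0 and 2, and the block 0 and 1. Of 8 fibroblast genes edgeR called 0, with 2 at an unadjusted p under 0.05 toward caput/corpus, where DESeq2 and limma voom each called 1. Basal and clear cells of the duct (11 tested) had 0 edgeR calls, 2 and 2 genes at an unadjusted p under 0.05, and 2 calls toward caput/corpus by DESeq2 and by limma voom. Sperm and spermatid genes (3 tested) had 0 calls by these tools and 1 at an unadjusted p under 0.05. Of 30 nuclear genes of the respiratory chain edgeR called 0, DESeq2 5 and limma voom 1, all toward caput/corpus, where 11 had an unadjusted p under 0.05. A negative log2 fold change was seen for 29 of the 30, with a median of -0.23.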

How the data were processed

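RNA of sorted cells was made into libraries with the Clontech SMARTER v4 kit and sequenced on a HiSeq2500, per the labels' protocols. Gene counts were made with STAR and HTSeq on mouse build mm9 and edgeR was used, per the submitters' processing notes, which give no versions. The deposited count files are named as not stranded, so reads of a gene and an antisense partner cannot be told apart. Reads set aside as aligning to several places made up 27.6% to 28.5% in Maj3 and 12.5% to 14.7% in Maj4, over the files of the 7 libraries. Reads on no gene differed by series too, at 7.75% to 11.3% in Maj3 and 18.6% to 24.8% in Maj4. The authors also deposited 1 table of RPKM, named per sample, in which value times gene length was a whole multiple of 1 read (tolerance 0.001) for all 37583 genes. Whole reads recovered from it were used because 3 of the 11 samples' own count files, 2 of them among the 7, hold other reads than the column of their name.

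Tests were run on the 7 libraries with edgeR 4.0.16 in R 4.3.3 (quasi-likelihood test, TMM scaling, filterByExpr, title series as covariate), with Benjamini-Hochberg adjustment over 14452 genes and a threshold of 0.05. CPM use TMM-scaled library sizes. Same-numbered libraries of a series deviated together (r = 0.528, 0.159 and 0.407 for the 3 pairs across genes, numbers from the source names), as did others of the same series (0.188 to 0.396), while across series r ran from -0.555 to 0.044. The block by series and number was therefore fitted too. Alternatives used DESeq2 1.42.0, limma 3.58.1 (voom, and log2 of the deposited RPKM plus 1 or 0.1), other scalings, filters and samples. Genes of low reads were compared as a ratio of pooled reads with an exact 95% interval.

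Named genes are the 15 with the smallest p in each direction (at least 2-fold, no overlap, at least 5 CPM in the higher region), called members of 69 lists with up to 4 more for their role, and Cx3cr1, Csf1r, Ptprc and Adgre1. Full values are printed for part of them, and 2 called genes are counted in their lists but not reported here. Of 1143 listed genes 1140 were found and 1034 tested. The members and lists were chosen with earlier results of these data known. Gene positions are not given, as the reference used here is not of build mm9, and promoters come from RefSeq on GRCm38.p6. The code was tested on simulated counts.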

Additional observations from a re-analysis of the deposited data

Results flagged for a closer look

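Of the 143 named genes, 8 had an IS library whose gap to the nearest other, divided by the range of the 4, exceeded Dixon's 95% critical value for 4 values, where chance gives about 1 in 20. In Tmsb10 it was IS replicate 3, at 23.8 CPM, among 34.3, 33.8, 23.8 and 34.3 CPM. For Smpdl3a it was replicate 1, at 70.7 CPM, where the libraries stood at 70.7, 83.7, 84.6 and 85.3 CPM. Bhlhe40 in replicate 2 was at 129 CPM (75.8, 129, 65.3 and 70.2 CPM) and Csrnp1 in the same library at 33.2 CPM (18.1, 33.2, 20.5 and 20.3 CPM). The other 4 are genes with few or no reads in IS. Mcpt8 stood at 0.0716 CPM in replicate 1 and Serpina1f at 0.0358 CPM there, with 0 reads in the other IS libraries. Wfdc13 stood at 0.0380 CPM in replicate 2, again with 0 reads elsewhere in IS. Rnase9, an epididymal ribonuclease-like gene, was called toward caput/corpus (log2 -7.49 ± 0.84) and held throughout. It stood at 0.608 CPM in replicate 2, among 0.0358, 0.608, 0.0547 and 0 CPM in IS and 28.6, 32.9 and 17.3 CPM in caput/corpus.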

How the results depend on the processing

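Against 914 genes called (361 toward IS, 553 toward caput/corpus), all 11 libraries in a single fit gave 571 (120 and 451) and 10 libraries without cauda replicate 1 gave 1353 (499 and 854). Without the title series 310 were called (83 and 227), with the replicate block, the paired fit, 398 (116 and 282), by DESeq2 1939 (876 and 1063), and with the 5 libraries whose file and column match 263 (131 and 132). The Maj4 libraries alone gave 241 (111 and 130). The Maj3 libraries alone, whose lone caput/corpus library is assumed to vary like IS, gave 0 (0 and 0; 1363 at an unadjusted p under 0.05), and the count files as listed 0 (0 and 0; 647 unadjusted). Leaving out each library gave 351 to 912 (99 to 374 and 182 to 538). In the other settings (2 other scalings, 2 filters, limma voom, robust edgeR, 2 pseudocounts on RPKM) the counts were 914 to 1240. The cause of these changes was not tested.

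With the files as listed, 5 of the 143 named genes reversed: Ptprc to 0.035, Adgre1 to -0.010, Ier2 to 0.047, Jun to 0.185 and Maff to 0.246 on the log2 scale. No named gene reversed under another setting. The block lost the call of 25 of these 143 and changed no other call among them. Called list members mentioned above but outside the 143 were lost with the block too, and Il1rl1 gained a call. Depth limits genes with few reads in a region, and neither other batches nor animals are named in the labels.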

Other observations

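The count file listed under IS replicate 2, with 30383072 reads on 17389 genes, matched no column of the table and entered only the fit of the count files as listed. In reads scaled to its own total as for CPM, without TMM, it held Cx3cr1 at 386, Csf1r at 1514, Lilra5 at 98.4, Crip1 at 492, Retnla at 284 and Fosb at 337. The mast cell genes Cma1 and Cpa3 stood at 127 and 131 there, and the epithelial genes Rnase10, Ovch2 and Lcn5 at 11.5, 0.0658 and 16.1. These are values of a single file of uncertain region, on another scale than the CPM above.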
